A study of Mus musculus with 2 samples.

Results

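The genes described here are the 6 that encode miR-23, miR-27 and miR-24 microRNAs in a pair of paralogous clusters. They were picked by annotated name and not by a cutoff on measured values, though with earlier results of these data known. They are Mir23a, Mir27a and Mir24-2 on chromosome 8, and Mir23b, Mir27b and Mir24-1 on chromosome 13. All 6 were present among the 2202 microRNA genes of the count tables. The tables come from microRNA-seq, the sequencing of short RNAs, of whole gastrocnemius, a calf muscle, from male B6CASTF1/J mice aged 36 days, an F1 cross of the C57BL/6J and CAST strains. There was a single group of 2 biological replicates, with no treatment and no second genotype, and the labels describe a different male for each but give both the same donor identifier. Levels are given as CPM, the count of a gene per 1000000 reads counted on the strand of any microRNA gene in that library.

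The 6 genes form a duplicated unit in which a miR-23, a miR-27 and a miR-24 gene follow each other. Each cluster is transcribed as a long primary RNA from which the hairpins are cut, and a mature microRNA of either arm, 5p or 3p, then guides silencing through its seed, bases 2 to 8. In muscle, miR-23a is known for repressing the atrophy ubiquitin ligases MAFbx and MuRF1, miR-27 for repressing Pax3 and myostatin, and miR-24 as a microRNA of myoblast differentiation. The miR-23 and miR-27 families are also known from endothelium, where they act in vessel growth.

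Positions follow mm10 with the GENCODE M21 annotation, and all 6 genes lie on the plus strand. On chromosome 8, Mir23a (ENSMUSG00000065611.1) spans chr8:84208518-84208592, Mir27a (ENSMUSG00000065444.1) chr8:84208672-84208758 and Mir24-2 (ENSMUSG00000065541.1) chr8:84208815-84208921. This cluster covers 404 bases, with gaps of 79 and 56 bases, and no protein-coding gene overlaps it. The end of Mir24-2 overlaps an exon of the long noncoding RNA Gm26532. On chromosome 13, Mir23b (ENSMUSG00000065599.2) spans chr13:63300484-63300557, Mir27b (ENSMUSG00000065475.2) chr13:63300712-63300784 and Mir24-1 (ENSMUSG00000105904.1) chr13:63301208-63301275. This copy is longer, at 792 bases, with gaps of 154 and 423 bases. It lies inside 2010111I01Rik, named Aopep in RefSeq, which encodes an aminopeptidase. Mir23b is intronic in all 9 transcripts of that gene that cross it. Mir27b falls in an untranslated exon of 1 of 9 such transcripts, and Mir24-1 in an exon of 4 of 11. On the opposite strand, 1 transcript of the protein-coding gene Fancc also crosses Mir23b, Mir27b and Mir24-1, with no exon over them.

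The mature sequences are shown because they set what a read can say about its locus. They are from RefSeq (GRCm38.p6), which had 11 mature entries for the 6 genes, and miR-23b-3p was not among them. In the 3p arms below, the capitals mark the seed.
miR-23a-3p, from Mir23a: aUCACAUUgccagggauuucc
miR-27a-3p, from Mir27a: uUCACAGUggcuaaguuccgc
miR-27b-3p, from Mir27b: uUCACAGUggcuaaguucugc
miR-24-3p, from Mir24-2 and Mir24-1: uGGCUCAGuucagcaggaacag
The miR-27 pair shares its seed and the miR-24 genes give the same 3p sequence, so within each of these pairs the paralogs carry the same seed.

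The miR-27 3p arms matched at 20 of 21 positions. Their only difference was C19U, with the base of miR-27a first and position 1 at the 5′ end, and the capitals below mark it.
miR-27a-3p: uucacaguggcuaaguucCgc
miR-27b-3p: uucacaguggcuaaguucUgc
Over 22 positions the miR-24 3p arms had 0 differences. Their 5p arms differed at 5 of 22 positions, the first at position 17, while the seeds, in capitals, were the same.
miR-24-2-5p, from Mir24-2: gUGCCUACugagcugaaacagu
miR-24-1-5p, from Mir24-1: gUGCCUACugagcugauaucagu
The miR-27 5p arms were less alike, with 8 differences in 22 positions.

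A read therefore has to reach a certain base before it can be placed. All 2202 annotated hairpins were searched for each mature sequence, cut to a given number of bases from its 5′ end. The first 18 bases of miR-23a-3p were also found in the Mir23b hairpin, and 19 bases or more were found in Mir23a alone. The same held for miR-27a-3p and miR-27b-3p, which part at base 19. For miR-24-3p, all 22 bases occurred in both hairpins. The miR-24 5p arms were each unique from 17 bases on, and those of miR-23 and miR-27 from 15, the shortest length searched. Read lengths are not given in the tables, and other parts of the genome were not searched.

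**Figure D1:**
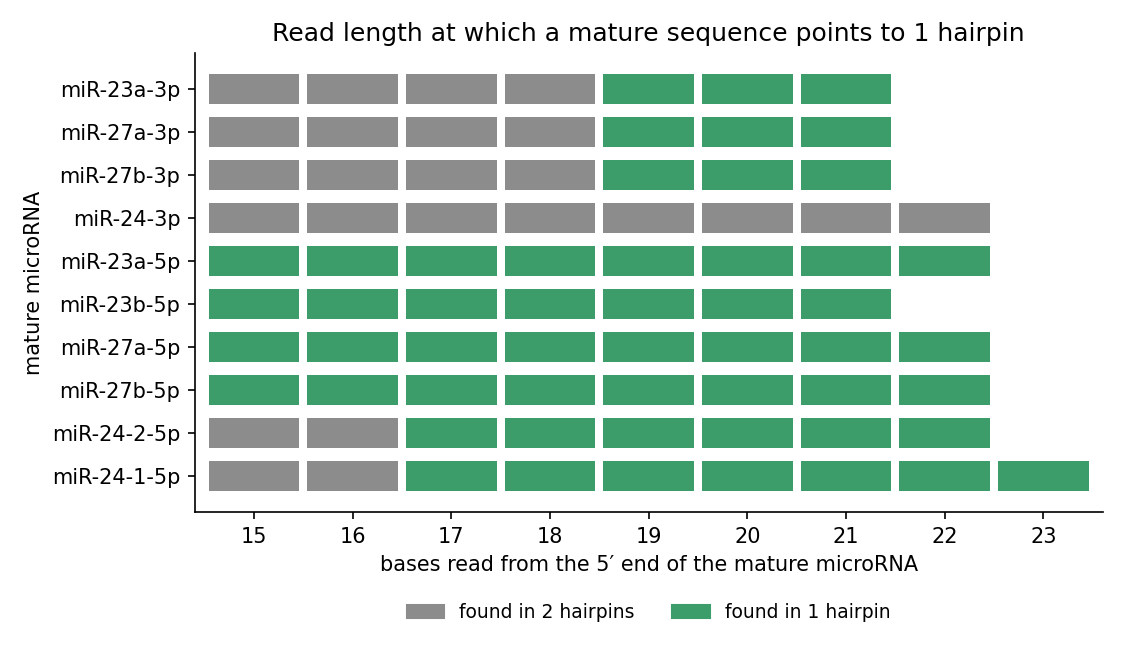
For each mature microRNA of the 6 genes with a RefSeq sequence (vertical axis), blocks show whether the bases read from its 5′ end (horizontal axis, 15 bases and more) occurred in 2 annotated hairpins (grey) or in 1 (green). The 3p arms of miR-23a, miR-27a and miR-27b turn green at 19 bases, and miR-24-3p stays grey to its last base, 22.

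The whole hairpins, arms included, were also aligned from end to end. Mir24-2 and Mir24-1 were identical at 92.3% of 65 aligned bases, Mir23a and Mir23b at 85.5% of 69, and Mir27a and Mir27b at 85.1% of 67. A further 45, 11 and 26 columns were gaps, most of them for the miR-24 pair, whose annotated hairpins are 107 and 68 bases long. The longest stretch shared without a mismatch was 20 bases for the miR-23 and miR-27 pairs and 28 bases for the miR-24 pair. The chromosome 8 hairpins were richer in G and C, at 56.0% to 61.7%, than those of chromosome 13, at 47.9% to 51.5%, and the ranges did not overlap.

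Replicate 1 held 4134880 counted reads and replicate 2 held 3219740. A further 70.4% and 73.3% of all reads aligned to several loci. These are listed in a row of their own, apart from the genes, and each level below is read as that of reads placed at 1 locus. The striated muscle list held 2.89% ± 0.217 (SD, n = 2) of counted reads, led by Mir206, and 0 of its 9 genes were at 0 in both libraries. Mir1a-1 and Mir1a-2 had means of 13.6 and 331 CPM, and Mir133a-1 and Mir133a-2 of 24.5 and 3.28 CPM. Reads that fit both genes of such a pair are not in these levels. The share and the lead of Mir206 thus hold for reads placed at 1 locus only. Other cells of the muscle were present: Mir126a, the endothelial marker, held 9.06% ± 0.737. The nerve and glia list held 0.430% in replicate 1 and 0.124% in replicate 2. Nearly all of it came from Mir338, with 17718 and 3980 counts, and 6 of its 9 genes, the Mir124a and Mir9 genes, were at 0. Mir9-1, Mir9-2 and Mir9-3 hold an arm found at several loci, so reads of that arm are not placed at 1 locus. Sharing of an arm was not determined here for the Mir124a genes. A 0 for the Mir9 or Mir124a genes thus does not show absence. In whole muscle, more cells of a type and more RNA per cell cannot be told apart.

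The chromosome 13 cluster held more counted reads than the chromosome 8 cluster in both animals. Chromosome 13 took 5.48% of counted reads in replicate 1 and 4.78% in replicate 2, or 5.13% ± 0.496. Chromosome 8 took 3.76% and 3.23%, or 3.50% ± 0.375. The ranges did not overlap, and 59.3% and 59.7% of the reads of the 6 genes came from chromosome 13. The miR-23 genes supplied most of them, 86.1% in replicate 1 and 85.5% in replicate 2, the miR-27 genes 13.3% and 13.9%, and the miR-24 genes 0.569% and 0.598%. These are shares of reads placed at 1 locus. Reads of miR-24-3p that fit both hairpins are read as in neither count, so the last share is not that of all miR-24.

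The miR-23 genes were the most abundant members. Mir23b was counted 183506 times in replicate 1 and 123944 times in replicate 2, which are 44380.0 and 38495 CPM (mean 41438 ± 4161, SD, n = 2). Mir23a had 145663 and 96634 counts, or 35228 and 30013 CPM (32620.4 ± 3687). Mir23b ranked in place 7 of all genes and Mir23a in place 9, and the CPM of the pair did not overlap between libraries. Mir21a, known from tissue growth and injury, stood between them in rank at 33610.1 ± 228 CPM and overlapped Mir23a. Mirlet7i, a let-7 gene, was next above Mir23b at 41638 ± 2970.2 CPM, with overlapping values. Mir206, the skeletal muscle microRNA, came next below Mir23a.

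The miR-27 genes were farther apart. Replicate 1 had 42828 counts of Mir27b and replicate 2 had 29781, which are 10358 and 9249.5 CPM (9804 ± 784). Mir27a had 8115 and 6139 counts, or 1963 and 1907 CPM (1935 ± 39.5). Mir27b ranked in place 21 and Mir27a in place 46. Next to Mir27b in rank were Mir127, an imprinted microRNA, above and Mir30e, of the miR-30 family, below. Mir27a stood between Mir434 and Mir487b, both of the imprinted Dlk1-Dio3 region, and overlapped both.

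The miR-24 genes were the lowest members, and their order was the other way round. Both hairpins hold all of miR-24-3p, so a read that ends within it cannot be placed at 1 locus and is read as in neither count. Which arm the counted reads came from is not in the tables. The levels and ranks below are therefore not those of miR-24-3p. Mir24-2, on chromosome 8, was counted 1800 times in replicate 1 and 1312 times in replicate 2, which are 435 and 407 CPM (421 ± 19.7). Mir24-1, on chromosome 13, had 375 and 232 counts, or 90.7 and 72.1 CPM (81.4 ± 13.2). Mir24-2 ranked in place 93 and Mir24-1 in place 174. Both overlapped their neighbours in rank, which were Mir34a and Mir455 for Mir24-2 and Mir495 and Mir450b for Mir24-1. The full order, Mir23b, Mir23a, Mir27b, Mir27a, Mir24-2, Mir24-1, was the same in both libraries, and no neighbouring members overlapped. The steps were 1.27-fold, 3.33-fold, 5.07-fold, 4.59-fold and 5.18-fold.

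**Figure D2:**
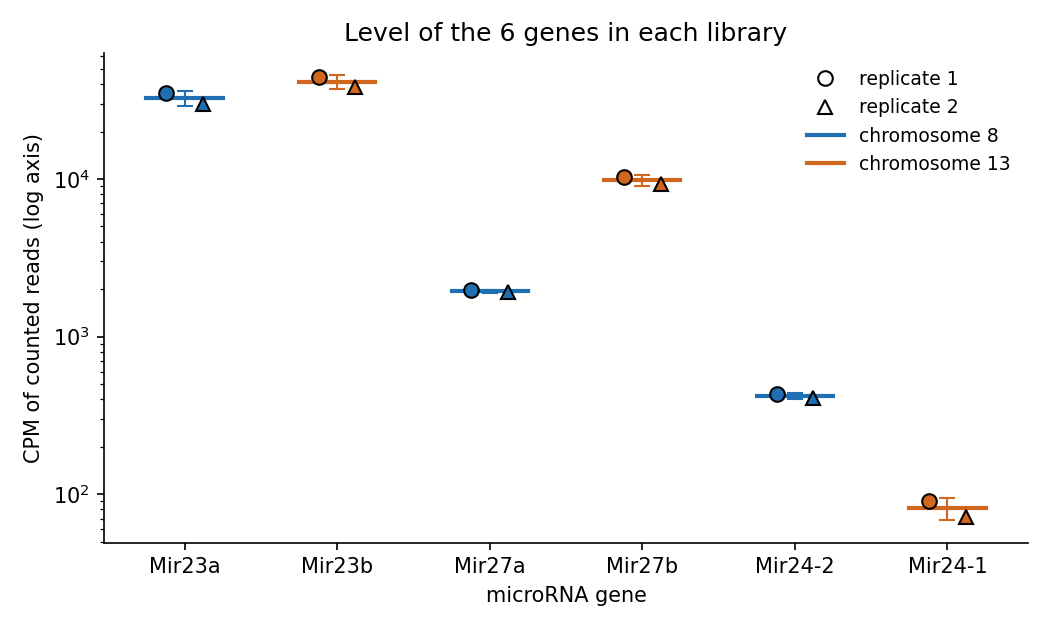
CPM of each gene (vertical axis, log scale) in replicate 1 (circles) and replicate 2 (triangles), with the mean (line) and SD (bars) of the 2 libraries, in blue for chromosome 8 and orange for chromosome 13. Mir23b and Mir27b lie above their chromosome 8 paralogs, while Mir24-1, at 81.4 CPM, lies below Mir24-2, at 421 CPM.

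Compared gene by gene, the clusters differed in size and in direction. Mir23a was below Mir23b by 1.27-fold, a log2 ratio of counts + 0.5 of −0.33 in replicate 1 and −0.36 in replicate 2 (mean −0.35 ± 0.02, SD, n = 2). Mir27a was below Mir27b by 5.06-fold, with log2 ratios of −2.40 and −2.28 (mean −2.34 ± 0.09). Mir24-2 was above Mir24-1 by 5.20-fold, with log2 ratios of 2.26 and 2.50 (mean 2.38 ± 0.17), or a mean of 1.73 when counts were divided by hairpin length. Each difference was larger than the spread between the animals and had the same direction in both. For the miR-24 pair, miR-24-3p reads that fit both hairpins are read as in neither count. Exact sign-flip tests, two-sided and over the 2 libraries, gave p = 0.5 for each of the 9 gene pairs compared here and below, the smallest value such a test can give, and 0.5 after Benjamini-Hochberg adjustment.

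Counting error was small for the miR-23 and miR-27 pairs. The share of the miR-23 pair held by Mir23b was 55.7% in replicate 1 and 56.2% in replicate 2, with Clopper-Pearson 95% limits of 55.6 to 55.9 and of 56.0 to 56.4. For Mir27b the share of its pair was 84.1% (83.7 to 84.4) and 82.9% (82.5 to 83.3). For Mir24-1 it was 17.2% (15.7 to 18.9) and 15.03% (13.3 to 16.9), the widest limits of the 3 pairs. The intervals of the animals were apart for miR-23 and miR-27 and overlapped for miR-24. These limits reflect counting error alone, as PCR copies of 1 molecule are not told apart.

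The genes of a cluster also differed from each other, and by different steps on the 2 chromosomes. On chromosome 8, Mir27a was 16.8-fold below Mir23a (log2 ratio −4.07 ± 0.13) and Mir24-2 was 4.59-fold below Mir27a (−2.20 ± 0.04). On chromosome 13, Mir27b was 4.22-fold below Mir23b (−2.08 ± 0.03), and Mir24-1 was 121-fold below Mir27b (−6.92 ± 0.12). The miR-24 counts leave out miR-24-3p reads that fit both hairpins, whereas whole miR-27a-3p and miR-27b-3p each fit 1 hairpin. Mir23a thus made up 93.6% and 92.8% of its cluster's reads in replicates 1 and 2, and Mir23b 80.9% and 80.5%. Mir27a made up 5.22% and 5.90%, and Mir27b 18.9% and 19.3%.

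The difference between these ratios was taken within each library. The miR-27 over miR-23 ratio was lower on chromosome 8 than on chromosome 13 by 3.98-fold, with log2 differences of −2.07 and −1.92 (mean −1.99 ± 0.10, n = 2). The miR-24 over miR-27 ratio was higher on chromosome 8 by 26.3-fold, with log2 differences of 4.66 and 4.78 (mean 4.72 ± 0.08). The exact two-sided sign-flip p was 0.5 for both differences. The miR-24 counts leave out reads that fit both miR-24 hairpins, so the 26.3-fold value is not that of all miR-24. Per base of hairpin, its mean log2 ratios were −2.50 on chromosome 8 and −6.81 on chromosome 13, beside −2.20 and −6.92 in counts.

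**Figure D3:**
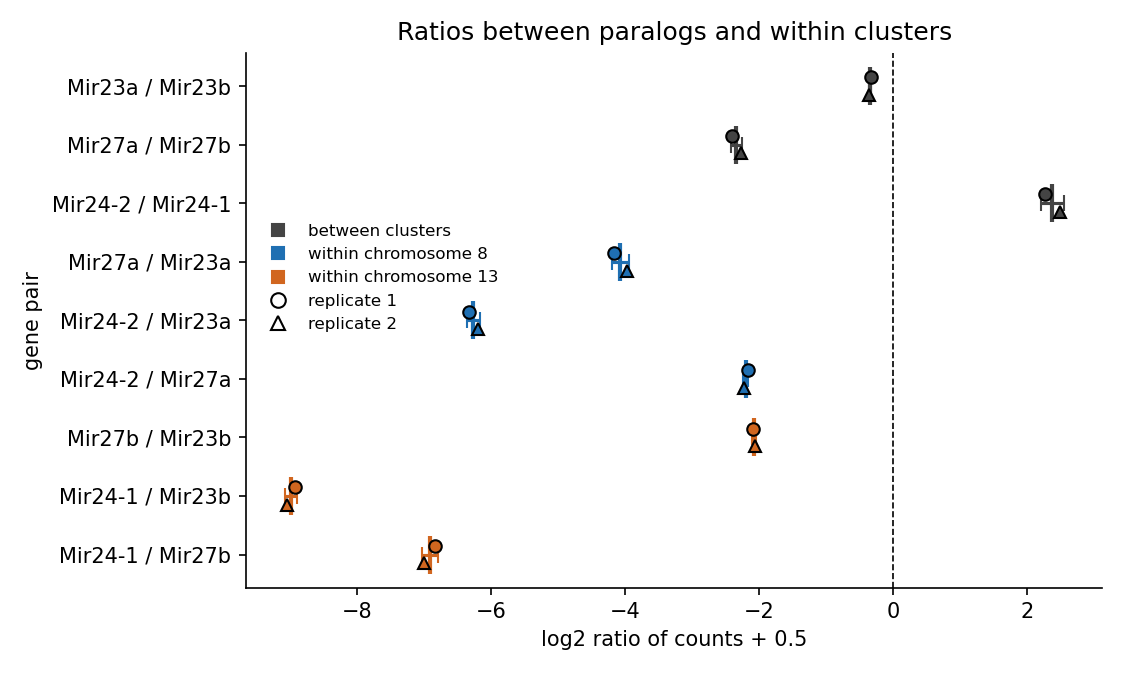
Log2 ratios of counts + 0.5 (horizontal axis) for 9 gene pairs (vertical axis), in replicate 1 (circles) and replicate 2 (triangles), with mean (tick) and SD (bars) of the 2 libraries; grey pairs compare the clusters, blue and orange pairs lie within chromosome 8 and chromosome 13. Mir24-2 over Mir24-1 is right of 0 at 2.38, and the other 8 pairs are left of it, down to −9.00 for Mir24-1 over Mir23b.

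The reads aligned to several loci were numerous beside these gaps. In replicate 1, Mir23b exceeded Mir23a by 37843 reads, which equal 0.273% of the reads aligned to several loci, and Mir27b exceeded Mir27a by 34713 reads, or 0.250%. The gap of the miR-24 pair, which has identical 3p arms, was far smaller: Mir24-2 exceeded Mir24-1 by 1425 reads in replicate 1 and 1080 in replicate 2, or 0.0103% and 0.0088%. To bring Mir24-2 to the count of Mir23a would take 143863 reads, or 1.04%, and to bring Mir24-1 to Mir23b 183131 reads, or 1.32%. In replicate 2 the other 4 shares, in the same order, were 0.222%, 0.192%, 0.776% and 1.01%. How many such reads came from the 6 genes is not in the tables, and their part in the ratios was not tested.

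The levels were then set beside those of other genes by sharing of mature sequence. Of the 1018 genes of the tables with a RefSeq mature sequence, 113 have a hairpin with a whole arm found at several loci, Mir24-2 and Mir24-1 among them. Of these 113, 31.9% had a mean of at least 10 CPM, and those 36 genes had a median of 163 CPM. Mir24-2 was in place 9 of this class and Mir24-1 in place 25, and the highest gene, Mirlet7f-2, reached 4909 CPM. A class of 25 genes shares only the first 18 bases of an arm, and Mir23b, Mir23a, Mir27b and Mir27a were its 4 highest genes. Mir23b is in it because its hairpin holds the first 18 bases of miR-23a-3p, and not by a RefSeq arm of its own. In this class 44.0% reached 10 CPM, with a median of 383 CPM. Of the 880 remaining genes, 21.4% did, with a median of 214 CPM, up to 119561 CPM for Mir22, which is abundant in heart and muscle. An arm missing from RefSeq, as miR-23b-3p is, cannot put a gene in a sharing class, so some of the 880 may still share an arm. This comparison of classes is a description without a test.

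**Figure D4:**
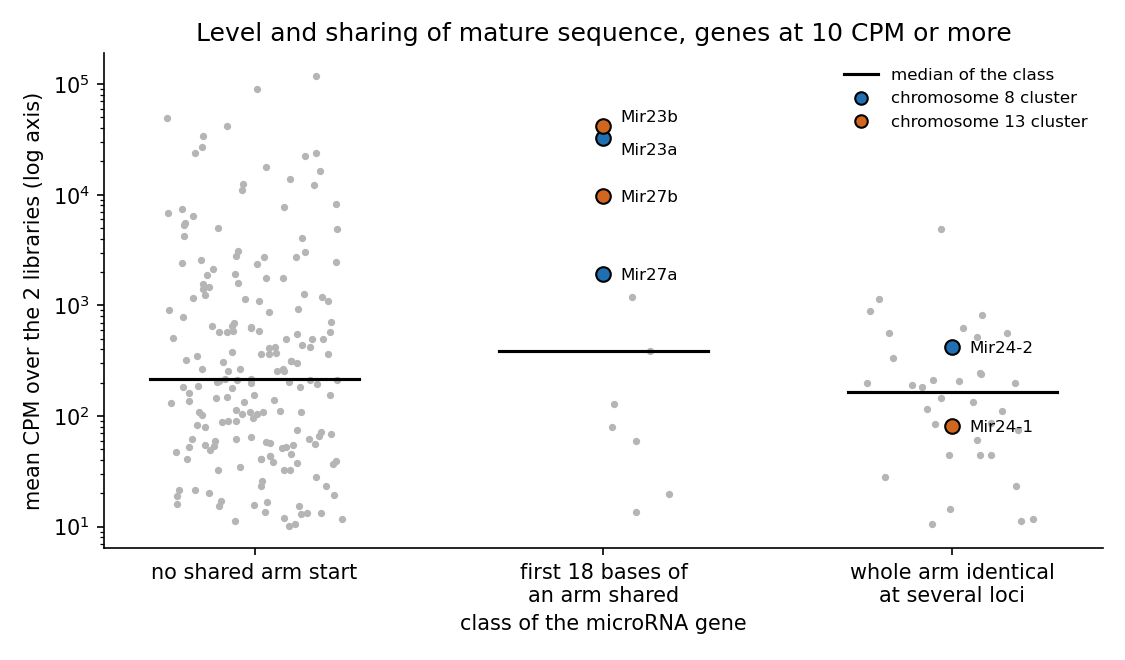
Mean CPM over the 2 libraries (vertical axis, log scale) of genes at 10 CPM or more, by whether an arm of the microRNA is shared with other hairpins (horizontal axis); grey points are other genes, coloured points the 6 genes and black lines class medians of 214, 383 and 163 CPM from left to right. The miR-23 and miR-27 genes top the middle class, and the miR-24 genes lie on either side of the median of the right one.

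The column of the table decided whether the miR-24 genes were seen at all. Mir24-2 overlaps Mir3074-2 and Mir24-1 overlaps Mir3074-1, microRNA genes on the opposite strand. In the column that ignores strand, both miR-24 genes had 0 counts in both libraries, and the miR-23 and miR-27 genes had the same counts as on their own strand. On its own strand, Mir3074-2 had 0 counts in both libraries and Mir3074-1 had 3 and 2. Opposite-strand counts of the miR-23 and miR-27 genes were 0 in both libraries.

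In RefSeq, 4 other genes carry the seed of miR-24-3p: Mir6413, Mir6410, Mir6369 and Mir5124b. All 4 had 0 counts in both libraries, and for reads placed at 1 locus such a 0 allows a level of up to 0.726 CPM in the first library and 0.932 CPM in the other. No further gene with the seed of miR-23a-3p or of the miR-27 3p arms was found there.

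Between the 2 animals the members differed little. Log2 ratios of replicate 2 over replicate 1, from CPM + 1 scaled by TMM over all genes, were −0.06 for Mir23a, −0.04 for Mir23b, 0.13 for Mir27a, 0.00 for Mir27b, 0.07 for Mir24-2 and −0.16 for Mir24-1. Of the 6 genes, 0 passed 2-fold, beside 5.36% of the 261 genes whose mean was 10 CPM or more, 0.383% higher and 4.98% lower in replicate 2. Their median was −0.02 and that of the 261 genes −0.05, and the median sizes of the ratios were 0.07 and 0.18. The 261 genes were not matched to the members in level, and at a minimum of 100 CPM 1.21% of genes passed 2-fold. A count of 0 among 6 genes does not set the members apart from such a background. With 1 library on each side these values have no replicate check.

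Counting intervals of the ratios excluded 0 for Mir23a (−0.08 to −0.05), Mir23b (−0.05 to −0.03) and Mir27a (0.08 to 0.17). They held 0 for Mir27b, Mir24-2 and Mir24-1, the last with the widest interval, −0.41 to 0.08. The signs depended on the scaling: 3 of the 6 genes were higher in replicate 2 with TMM, 4 with DESeq2 size factors and 0 under total-count scaling, which moved the median of the 261 genes to −0.21.

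**Figure D5:**
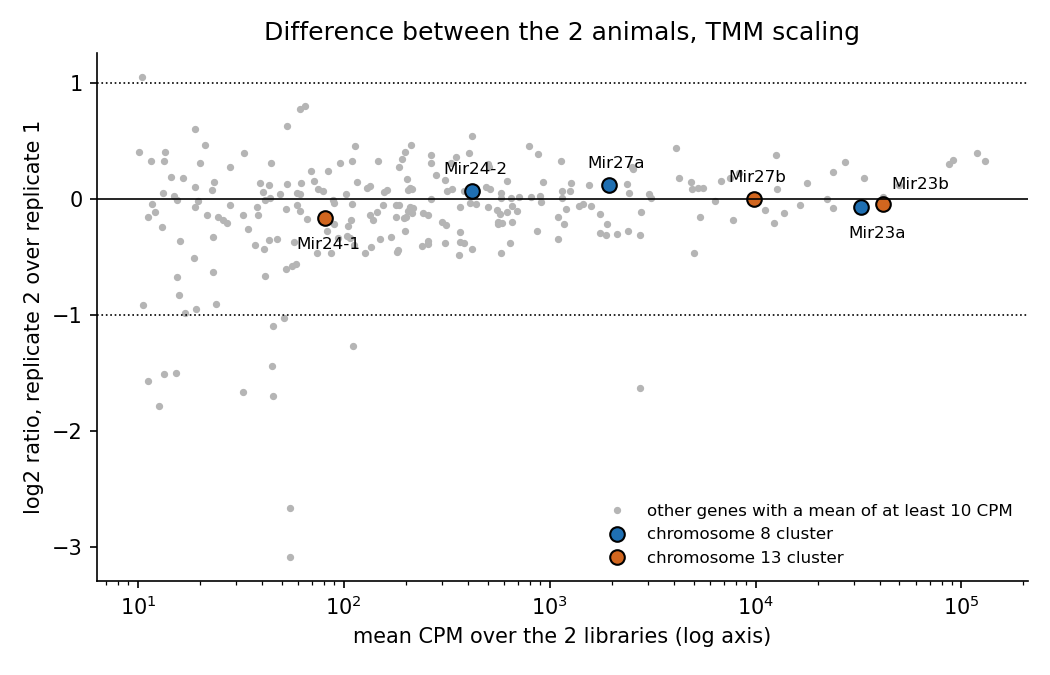
Log2 ratio of replicate 2 over replicate 1 (vertical axis, TMM scaling) against mean CPM (horizontal axis, log scale) for the 261 genes that averaged 10 CPM or more; dotted lines mark 2-fold. The 6 genes, in blue and orange, lie between −0.16 and 0.13, and 14 other genes lie past 2-fold.

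MicroRNAs known from the same settings were counted in the same way. Of 13 listed genes of muscle atrophy and myogenesis, 12 averaged 10 CPM or more, of which 0 were higher and 1 was lower past 2-fold in replicate 2, beside 0.383% higher and 4.98% lower of all 261 genes. That gene was Mir182, with 399 counts in replicate 1 and 41 in replicate 2. The median log2 ratio of the 12 was 0.24 with TMM, 0.08 under total-count scaling and 0.30 with DESeq2 size factors. Of 14 angiogenesis genes with a match, 13 reached 10 CPM and 0 passed 2-fold in either direction, beside the 5.36% of all genes. Their median was −0.05 with TMM, −0.22 under total-count scaling and 0.00 with DESeq2 size factors. The first list held 6.25% ± 0.229 of counted reads, led by Mir21a, and the second 11.1% ± 0.460, led by Mir126a. The 6 genes held 8.63% ± 0.870, at 9.25% in replicate 1 and 8.01% in replicate 2. All these shares, and the leads of Mir21a and Mir126a, hold for reads placed at 1 locus only. Both lists have genes with an arm found at several loci, among them Mir181a-1 in the first and Mir92-1 in the second.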

How the data were processed

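The authors deposited whole-number read counts per microRNA gene, 1 table per library, without normalization. Genes follow GENCODE M21 on mm10, per the deposited file descriptions. For the aligner, counter and trimming, the sources used here give no name. Of the 3 count columns (strand ignored, the gene's strand, the opposite strand), the gene's strand was used. In this layout reads aligned to several loci are in no gene's count, and the tables are read so. Library sizes leave out the 4 rows without a gene, among them reads aligned to several loci (70.4% and 73.3% of 19726010 and 16764463 reads), unmapped (7.05% and 6.02%) and outside genes (1.63% and 1.51%).

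CPM were computed from counted reads, and log2 ratios from counts + 0.5 or, between libraries, from CPM + 1 after TMM scaling (edgeR 4.0.16). The scaling was tested on simulated data. DESeq2 1.42.0 size factors, total-count scaling, other minimums, other pseudocounts and leaving out a replicate were alternatives. Counts were not divided by length, since a read was taken to stand for a mature RNA, of 21 to 23 bases in RefSeq. Read lengths are not given, so this was not tested. Per-base ratios and the classes of genes by shared mature sequence were chosen after the data were seen. The classes were first set by each gene's own RefSeq arms and then by any RefSeq arm that its hairpin holds. Hairpins (GENCODE transcripts) were aligned globally with match 1, mismatch −1, gap opening −2 and extension −1 (Biopython 1.88). The libraries' counts differed beyond sampling noise (chi-square over degrees of freedom 111.5, 362 genes), so they were kept as 2 samples.

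Named genes were the members, microRNAs opposite them, genes with their 3p seeds, neighbours in rank and the fixed lists. Members and lists were chosen with earlier results of these data known. The list gene Mir424 was not analysed here. With 2 libraries no likeness of pattern across samples was computed. CAST alleles that differ from mm10 can lower a count, which was not analysed here.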

Additional observations from a re-analysis of the deposited data

How the results depend on the processing

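All 47 values of the 9 gene-pair ratios under alternatives had the reported sign. Most of these alternatives could hardly change a sign, as each library alone had it and the miR-23 and miR-27 counts were unchanged with strand ignored. No alternative placed the reads aligned to several loci. Per base of hairpin the log2 ratios became −0.37 (Mir23a over Mir23b), −2.59 (Mir27a over Mir27b), 1.73 (Mir24-2 over Mir24-1), −4.29 (Mir27a over Mir23a), −6.78 (Mir24-2 over Mir23a), −2.50 (Mir24-2 over Mir27a) and −8.87 (Mir24-1 over Mir23b). With strand ignored the miR-24 genes were at 0, so Mir24-2 over Mir24-1 has no value. A limit of 3 counts per library then gives at most −15.27 (Mir24-2 over Mir23a), −11.20 (Mir24-2 over Mir27a), −15.62 (Mir24-1 over Mir23b) and −13.54 (Mir24-1 over Mir27b). These limits, which are among the 47 values, describe that column only and do not bound the ratios. On their own strand Mir24-2 had 1800 and 1312 counts and Mir24-1 had 375 and 232. With strand ignored, the chromosome 8 and 13 clusters held 4.60% and 6.82% of counted reads. On the gene's strand they held 0.705% and 1.03% of all reads. The share of all genes past 2-fold between animals was 2.68% with a pseudocount of 10 CPM and 1.21% at a minimum of 100 CPM. At 100 CPM, 19.5% of genes with an identical arm and 14.1% of those with no detected sharing passed, and 31.9% of the latter at 1 CPM. With classes set only by each gene's own RefSeq arms, chosen after the data were seen, the shares at 10 CPM were 30.0%, 45.5% and 21.7%. Mir23b, the highest gene of the middle class, is then not in it. No paired comparison of conditions was possible because the series has a single group, while the gene-pair ratios were taken within each library. A single library is within 1 SD of the mean of 2 by construction. Mir24-1, with 375 and 232 counts, is the least precise member.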
